A study of Mus musculus with 12 samples.

Results

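Knockdown of the X-linked gene Rbmx was compared directly with knockdown of its autosomal retrocopy Rbmxl1 in Neuro-2a cells, an adherent mouse neuroblastoma line. The comparison takes 8 of the 12 RNA-seq samples of the series, chosen by their labels: 4 carry the Rbmx knockdown label and 4 the Rbmxl1 knockdown label, and the 4 scramble controls stay outside every test. Cells of both groups were co-transfected by lipofection with 1 µg of a GFP plasmid and with 3 µg in total of plasmids for miR30-type artificial microRNAs. The Rbmx group received a pool of 3 microRNA plasmids and the Rbmxl1 group a pool of 2. The labels give 1 µg of each plasmid as well as the total of 3 µg, which do not add up for the pool of 2. GFP-positive cells were sorted 48 hours after transfection, and stranded libraries were made from total RNA depleted of ribosomal RNA. The sort selects cells that took up GFP, so the share of cells that also carried a microRNA plasmid is not known. Both groups carry targeting microRNAs, while the targets, the guide sequences and the number of plasmids differ. Whether the microRNA vector itself acted alike on both groups was not tested. The question asked of these samples was which genes and gene classes differ between loss of the X-linked gene and loss of its copy.

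RBMX, also called hnRNP G, is a nuclear RNA-binding protein with an RNA recognition motif and a low-complexity tail. It takes part in splice site choice together with SR proteins and Tra2 proteins, protects very long internal exons of genome maintenance genes from being broken up, and has been tied to sister chromatid cohesion. Rbmxl1 arose by reverse transcription of an Rbmx messenger RNA and its insertion into an autosome, and its reading frame has been kept. A retrocopy that stays active can supply a protein close to that of the parent gene.

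The 2 targets are close in sequence but can mostly be told apart by sequencing reads, and the first 150 coding bases of each are shown to make this visible. They were read from the GRCm38 assembly with GENCODE M21 gene models, 5′ to 3′, and capitals mark the positions at which the copies differ.
Rbmx: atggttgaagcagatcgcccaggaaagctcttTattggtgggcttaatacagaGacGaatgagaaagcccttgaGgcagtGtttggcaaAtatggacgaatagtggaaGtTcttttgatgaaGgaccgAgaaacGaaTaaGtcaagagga
Rbmxl1: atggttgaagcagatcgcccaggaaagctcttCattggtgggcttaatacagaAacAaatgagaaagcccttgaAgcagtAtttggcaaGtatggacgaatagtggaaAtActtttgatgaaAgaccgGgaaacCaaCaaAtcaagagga
In this stretch 13 bases differ. Over the whole coding sequence, 1176 bases in Rbmx and 1167 in Rbmxl1, 106 aligned bases differed and the identity was 90.9%, with a longest identical run of 67 bases. Of the 50-base words of the Rbmx transcript, 0.874% also occur in the Rbmxl1 transcript, so few reads of that length could match both. A second annotated copy, Gm7324, differs from Rbmxl1 at 4 of 1167 coding bases, and 74.2% of the 50-base words of Rbmxl1 occur in it. Reads that align equally well to several places were not assigned to genes in the deposited counts, so the levels of Rbmxl1 and Gm7324 are uncertain in a way that the level of Rbmx is not. Of the 22-base words of the Rbmx transcript, 6.76% also occur in the Rbmxl1 transcript. The guide sequences of the plasmids were not used here, so whether a guide can act on both targets was not tested.

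The 8 libraries held from 43.1 to 50.0 M reads in genes. Levels are given as CPM, the reads of a gene per 1e6 reads in genes, on library sizes after TMM scaling (edgeR's trimmed mean of M-values). Libraries with replicate numbers 1 and 2 stood apart from those with numbers 3 and 4 on the first principal component, which held 48.7% of the variance, and libraries that share a number varied together (correlations of their deviations from the group means 0.21 to 0.55). Within a group no library was a duplicate of another. The labels call the replicates biological and do not say what their number stands for, so p-values measure the spread between these samples. The neuroblast markers given here were expressed in both groups, with means in the Rbmx group of 468 CPM for Gata2, 389 CPM for Hand2 and 17.0 CPM for Mycn. The summed level of the neuroblast markers was 2260 to 2906 CPM in Rbmx knockdown and 2158 to 2794 CPM in Rbmxl1 knockdown, higher in Rbmx knockdown in 4 of 4 pairs with overlapping groups. Markers of fibroblasts, glia, immune cells and epithelium were mostly at or near 0 in both groups (Col1a1, Gfap, Ptprc and Epcam among them); Pdgfrb (33.1 and 33.7 CPM) and Mbp (14.6 and 13.7 CPM) were the highest. Their summed levels overlapped between the groups: 31.2 to 43.6 CPM against 25.5 to 45.6 CPM for fibroblast markers, and 12.8 to 19.8 CPM against 13.5 to 18.6 CPM for glial markers. Immune markers summed to 0.451 to 1.07 CPM against 0.698 to 1.52 CPM, lower in Rbmx knockdown in 4 of 4 pairs. The part of these marker levels in the results was not tested.

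Each target was low only in the libraries labelled with its own knockdown. Rbmx (X:57383530-57393036, minus strand, ENSMUSG00000031134) stood at 22.1, 24.6, 30.9 and 32.5 CPM in Rbmx knockdown replicates 1 to 4, and at 81.5, 89.7, 85.0 and 87.7 CPM in Rbmxl1 knockdown. The groups did not overlap, and within the Rbmx group the libraries numbered 1 and 2 held less Rbmx than those numbered 3 and 4. The log2 difference was −1.66 ± 0.0867 (SE, n = 4 pairs), a 3.16-fold difference, with an adjusted p of 2.42e-07 in edgeR's quasi-likelihood test with the replicate number as a block and Benjamini-Hochberg adjustment. Rbmxl1 (8:78505269-78508898, minus strand, ENSMUSG00000037070) stood at 34.0, 37.4, 38.1 and 34.3 CPM in Rbmx knockdown and at 16.6, 12.9, 14.6 and 12.3 CPM in Rbmxl1 knockdown. These groups did not overlap either. The log2 difference was 1.36 ± 0.0911 (SE, n = 4 pairs), 2.57-fold, with an adjusted p of 3.58e-06 in the same edgeR test. A two-sided exact permutation test of 4 against 4 gave p = 0.0286 for each target, the smallest it allows, and the same value after adjustment over the 2 tests. That test ignores the pairing; with the pairs kept, the smallest exact p that 4 pairs allow is 0.125.

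In the scramble libraries, which were scaled over all 12 samples and are not part of any test, Rbmx averaged 67.7 ± 7.15 CPM and Rbmxl1 34.1 ± 2.21 CPM (SD, n = 4). In the scaling over 8 samples, Rbmx averaged 86.0 ± 3.56 CPM (SD, n = 4) in the Rbmxl1 group, above each of the scramble libraries (57.6 to 73.3 CPM). Rbmxl1 averaged 36.0 ± 2.11 CPM (SD, n = 4) in the Rbmx group, and its scramble libraries ran from 31.3 to 36.7 CPM. The direct comparison thus sets a group with Rbmx at about 27.5 CPM and its copy at 36.0 CPM against one with Rbmx at 86.0 CPM and its copy at 14.1 CPM. Summed over Rbmx, Rbmxl1 and the other family members, reads reached 57.0 to 70.2 CPM in the Rbmx group and 98.6 to 103 CPM in the Rbmxl1 group.

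**Figure D1:**
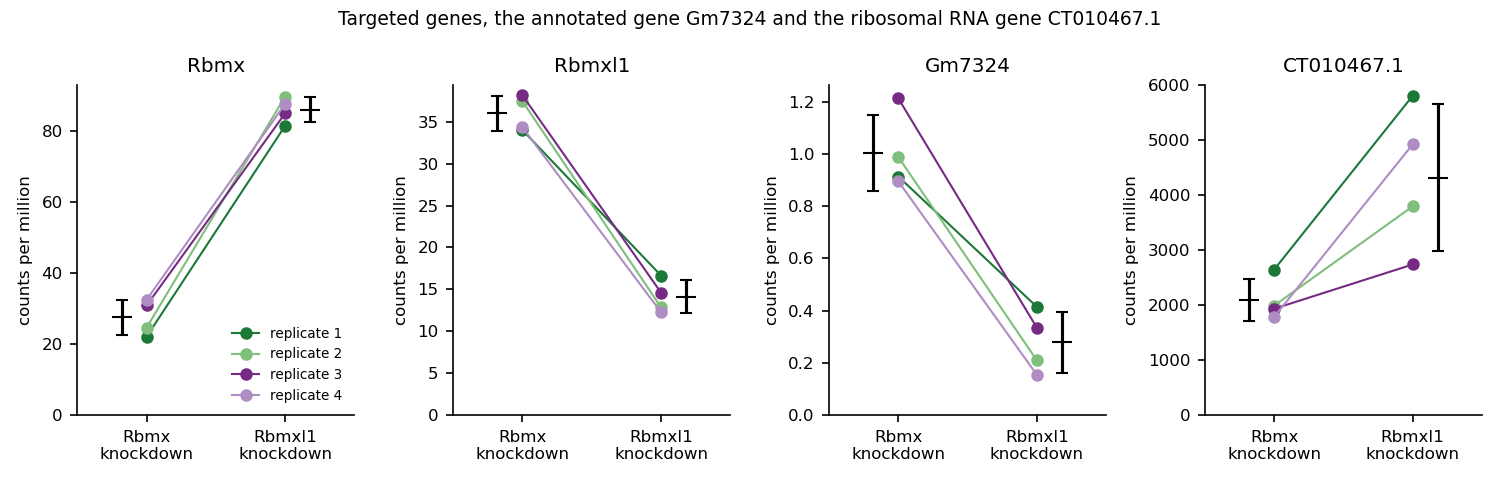
Levels in CPM (vertical axis, linear from 0) of Rbmx, Rbmxl1, Gm7324 and the ribosomal RNA gene CT010467.1 in each library; lines join libraries with the same replicate number, and the bars beside the points give the mean and SD of 4. The groups do not overlap in any of the 4 genes; in CT010467.1 the gap runs from 2641 to 2735 CPM.

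Gm7324 (14:43697828-43715378, plus strand), the copy with the sequence nearest to Rbmxl1, followed Rbmxl1 in direction. It stood at 0.914, 0.989, 1.21 and 0.896 CPM in Rbmx knockdown and at 0.414, 0.209, 0.335 and 0.154 CPM in Rbmxl1 knockdown, with 7 to 62 reads per library. The groups did not overlap, and the log2 difference of 1.88 ± 0.341 (SE, n = 4 pairs) was the largest positive one of all genes tested, but it did not pass adjustment in edgeR (adjusted p = 0.301). Whether these reads come from Gm7324 or from Rbmxl1 cannot be told apart. Rbmxl2, a testis-expressed retrocopy, had 1 read in 1 of the 8 libraries, and Rbmy, the Y-linked relative, had none. For reads that can be assigned to 1 gene, this allows up to 0.0669 CPM in the shallowest library (3 reads, counting error only). Rbmy overlaps Gm10256 on the same strand, and reads that match several places were not assigned, so the bound does not cover such reads.

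Beyond the targets, 1 gene passed the test. Of 17007 genes tested, 3 (0.0176%) were called at an adjusted p under 0.05: Rbmx and the ribosomal RNA gene CT010467.1 were lower in Rbmx knockdown (0.0118% of genes) and Rbmxl1 was higher (0.00588%). CT010467.1 (17:39846353-39848827, minus strand) stood at 2641, 1987, 1930.3 and 1781 CPM in Rbmx knockdown and at 5799.6, 3791, 2735 and 4918 CPM in Rbmxl1 knockdown. It was lower in each of the 4 pairs, and the groups did not overlap. The log2 difference was −1.01 ± 0.12 (SE, n = 4 pairs; edgeR adjusted p = 0.00387).

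CT010467.1 is annotated as ribosomal RNA, a class that the library preparation depletes, and it lies on the same strand as the annotated gene AY036118 and opposite Gm42418. In the scramble libraries it ran from 1782 to 4428 CPM (mean 3064 ± 1240.1 SD, n = 4), across the gap between the knockdown groups. It held 99.7% to 99.9% of the reads in ribosomal RNA genes in each of the 8 libraries, so the share of that class is no separate measure. Whether the gene's difference lies in the cells or in the depletion was not tested. The call was lost without replicate 1 (adjusted p = 0.0607), without the replicate block and with all 12 samples in the fit, and DESeq2, which called 5 genes (0.0294%), did not make it (adjusted p = 1.00). The adjusted p was 0.477 with all 12 samples and 1.00 without the block.

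**Figure D2:**
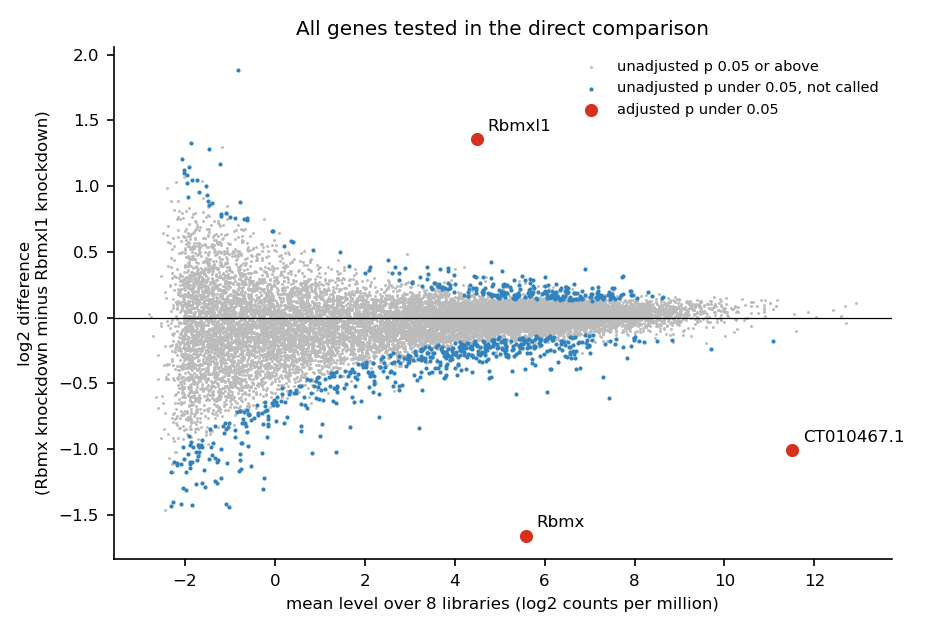
Log2 difference (vertical axis, Rbmx knockdown minus Rbmxl1 knockdown) against mean level (horizontal axis, log2 CPM) for the 17007 genes tested. The 3 called genes are red and named, genes at an unadjusted p under 0.05 that were not called are blue, and the rest are grey; apart from the called genes, the spread narrows with rising level around 0.

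For most genes the interval of the difference was narrow. The median absolute log2 difference was 0.0828 and the median half-width of its 95% interval 0.216. In 11566 genes (68%) the whole interval lay within 1.5-fold either way, and in 14557 (85.6%) within 2-fold. An estimated difference beyond 2-fold was seen for 74 genes, 17 higher and 57 lower in Rbmx knockdown, of which 7 had a mean of at least 1 CPM. At an unadjusted p under 0.05 there were 801 genes (4.71%), 263 higher (1.55%) and 538 lower (3.16%). Groups that did not overlap were found for 97 genes higher (0.57%) and 89 lower (0.523%) in Rbmx knockdown.

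None of the following genes passed adjustment; they are the 10 in each direction with the smallest unadjusted p among genes of at least 1 CPM that had the same direction in all 4 pairs. The higher ones lay between 0.24 and 0.37 on the log2 scale. Hist1h1a, a replication-dependent linker histone, stood at 140.2, 151, 132 and 124 CPM in Rbmx knockdown and at 115, 100.1, 119 and 89.5 CPM in Rbmxl1 knockdown (log2 difference 0.37 ± 0.0754 SE, n = 4 pairs, edgeR adjusted p = 0.615). Abce1, a ribosome recycling factor, stood at 211, 233, 267 and 251 CPM against 193, 183, 197 and 196 CPM (0.32 ± 0.0677 SE, n = 4 pairs, edgeR adjusted p = 0.671). In both genes the groups did not overlap, and DESeq2 called both at an adjusted p of 0.0402. Arf2, a small GTPase of the Golgi, also had groups that did not overlap, at 54.8 to 58.4 CPM against 42.5 to 48.0 CPM.

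The other 7 higher genes overlapped between groups while differing within each pair. Ybx1, an RNA-binding protein that packages messenger RNA, stood at 193, 228, 245 and 278 CPM against 181, 185, 190.1 and 201 CPM. Atf3, a stress-induced transcription factor, stood at 17.9, 23.6, 36.5 and 36.4 CPM against 15.2, 17.6, 32.3 and 27.6 CPM, and its level depended more on the replicate number than on the group. Nefh, the heavy neurofilament subunit, had a log2 difference of 0.24 and Prrxl1, a homeodomain factor of sensory neurons, one of 0.25. The remaining members were Ube2g1, a ubiquitin-conjugating enzyme (0.31), Lrrc75b (0.26) and Jup, the junction protein plakoglobin (0.24).

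Among the 10 lower genes, Bcl2 overlaps Gm37053 and Mir3473f on the same strand, and Wdr90 overlaps Rhot2. A further 3 lie inside or overlap a larger gene on the same strand, so their reads cannot be assigned with certainty. These were Mir5125, inside Srrm2 (log2 difference −1.02), the small Cajal body RNA Gm22009, inside Kpna4 (−0.45), and Gm20394, which overlaps Hap1 (−0.81). Mir5125 stood at 0.631, 1.20, 3.27 and 3.56 CPM in Rbmx knockdown and at 1.48, 3.79, 6.22 and 4.82 CPM in Rbmxl1 knockdown, and DESeq2 called it (adjusted p = 0.0402) where edgeR did not (0.615). Its host Srrm2, a splicing co-activator, differed by −0.09.

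Of the other lower genes, Ddb2, the damaged-DNA sensor of nucleotide excision repair, was the one whose groups did not overlap. It stood at 1.54, 1.18, 1.80 and 1.31 CPM against 2.09, 3.81, 3.28 and 2.00 CPM (−0.90 ± 0.23 SE, n = 4 pairs, edgeR adjusted p = 0.983). Slc9a5, a sodium/proton exchanger, stood at 22.5, 19.1, 28.1 and 24.1 CPM against 25.6, 34.6, 40.0 and 29.1 CPM (−0.46). Bcl2, the anti-apoptotic protein, stood at 9.57, 11.0, 14.2 and 12.8 CPM against 13.5, 18.3, 19.3 and 13.9 CPM (−0.45). In both of these the distance was widest in the pair numbered 2. Wdr90 (−0.40), the Wnt receptor Fzd7 (−0.29), the zinc finger gene Zfp280b (−0.39) and the pseudogene Ppp4r1l-ps (−0.39) complete the set. Without replicate 2 Zfp280b differed by −0.23 and Ppp4r1l-ps by −0.25.

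Gene classes were described by 36 lists of genes, with no test of a list. No member of any list other than Rbmx and Rbmxl1 was called, against 0.0176% of all genes tested. Over all genes the median log2 difference was −0.00, 49% lay above 0, and 4.71% had an unadjusted p under 0.05. With the list of the Rbmx family left out (median 1.36), list medians ran from −0.20 for clustered protocadherins to 0.17 for replication-dependent histones, and in 31 of the 36 lists the median took both signs among the 4 pairs. Apart from the Rbmx family, whose median is that of Rbmxl1 itself and turned to −0.15 with the filter of 1 CPM in 4 samples, its sign was the same in all 4 pairs for core spliceosome, ATF4 targets, nuclear oxidative phosphorylation subunits and cytosolic ribosomal proteins. Of the 70 genes that the rule for naming genes gave and that were tested, 35 differed by a value that moved by over 1.5 times or turned sign when 1 replicate was left out, 24 of them without replicate 2.

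**Figure D3:**
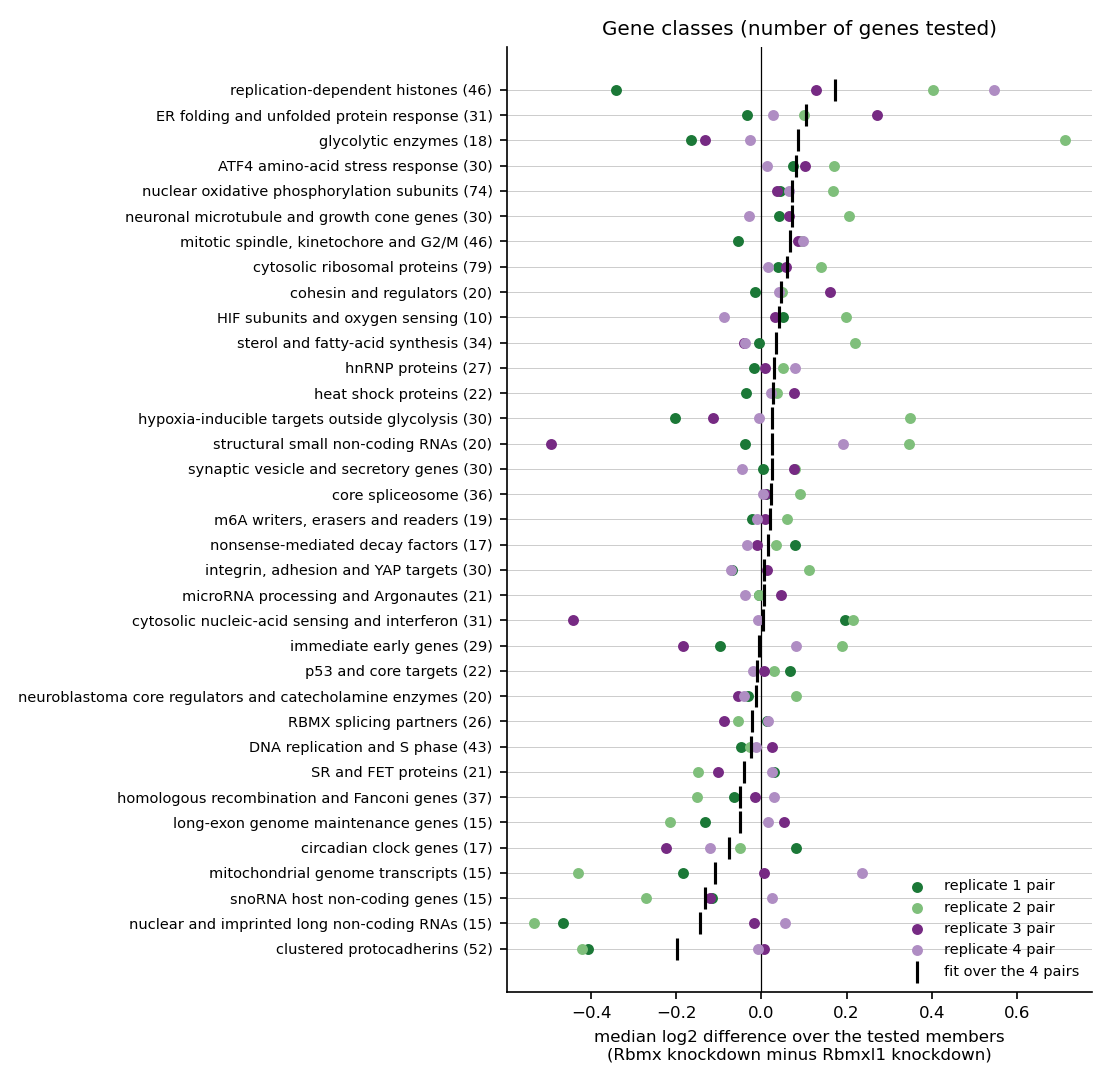
Median log2 difference (horizontal axis, Rbmx knockdown minus Rbmxl1 knockdown) of each gene class, with the number of genes tested in parentheses; coloured points give the median within each same-number pair and the black bar that of the fit over the 4 pairs. Histones range from −0.34 to 0.55 between pairs, and the splicing factor classes sit within 0.15 of 0 in every pair.

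Splicing factors as classes had medians of −0.04 to 0.03. For the genes that work with RBMX in splice site choice the median was −0.02 (26 tested, 12 higher and 14 lower), for hnRNP proteins 0.03 (27 tested, 15 higher and 12 lower), for SR and FET proteins −0.04 (21 tested, 8 higher and 13 lower) and for core spliceosome proteins 0.02 (36 tested, 24 higher and 12 lower). The SR and FET pair medians were 0.03, −0.15, −0.10 and 0.03, and those of the core spliceosome lay above 0 in each pair, at 0.00 to 0.09. All members of the first 3 lists, and 35 of 36 spliceosome genes, had their 95% interval within 1.5-fold. The most abundant members were flat: Hnrnpa1, a general splicing repressor, differed by 0.06, Pcbp2, a poly(C)-binding protein, by 0.09, and Prpf8, the scaffold at the heart of the spliceosome, by −0.01.

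A few splicing genes stood at an unadjusted p under 0.05, nearly all lower in Rbmx knockdown. Srsf7, an SR protein, stood at 66.4, 66.0, 117 and 106 CPM in Rbmx knockdown and at 68.5, 105, 142 and 109.7 CPM in Rbmxl1 knockdown (−0.26). It was lower in 4 of 4 pairs, by 0.04 in those numbered 1 and 4, and the difference was −0.12 without replicate 2. The SR-related gene Srsf11 (−0.26) and the SR protein kinases Clk2 (−0.27) and Clk1 (−0.22) were lower in 3 of 4 pairs, as was the cold-inducible RNA-binding protein Cirbp (−0.22). Without replicate 2 the differences were −0.13 for Srsf11, −0.11 for Clk2 and −0.14 for Clk1, and Cirbp differed by −0.33 without replicate 1. Snrnp70, the U1 snRNP protein, stood at 88.6, 90.6, 203 and 202 CPM against 95.4, 208, 306 and 188 CPM (−0.45, edgeR adjusted p = 0.983). Its distance lay in the pairs numbered 2 and 3, and the pair numbered 4 went the other way. Ptbp3, a polypyrimidine tract-binding protein, was the hnRNP gene under 0.05 and was higher in 4 of 4 pairs (0.17).

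Further genes were chosen after their values were seen and are no independent support for Snrnp70. Rsrp1, an arginine/serine-rich protein gene, stood at 128, 109, 167 and 165 CPM in Rbmx knockdown and at 202, 281, 255 and 145 CPM in Rbmxl1 knockdown (−0.61 ± 0.16 SE, n = 4 pairs, edgeR adjusted p = 0.983). Ccnl2, a cyclin of nuclear speckles, Leng8 and Arglu1 each differed by −0.39, with the Rbmxl1 library numbered 2 above the Rbmx library of that number (93.0 against 37.5 CPM in Ccnl2, 140 against 70.8 CPM in Leng8, 65.0 against 30.6 CPM in Arglu1). In the pair numbered 3 the log2 differences were −0.55, −0.63 and −0.47, and in the pair numbered 4 all 3 genes were higher in Rbmx knockdown. Ccnl2 was also higher there in the pair numbered 1 (0.10). On the second principal component the Rbmxl1 library numbered 2 and the Rbmx library numbered 1 lay at opposite ends. Without replicate 2 the fitted log2 differences were −0.36 for Rsrp1, −0.09 for Ccnl2, −0.19 for Leng8, −0.16 for Arglu1 and −0.20 for Snrnp70, all smaller than with it.

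Genome maintenance genes with very long internal exons, a class known to depend on RBMX, had a median of −0.05 (15 tested, 3 higher and 12 lower). The pair medians were −0.13, −0.21, 0.05 and 0.02, so the lower values came from the pairs numbered 1 and 2, and the median was 0.03 in replicates 3 and 4 alone. Brca2, a central protein of homologous recombination, with a 4809-base internal exon, stood at 38.2, 35.0, 39.9 and 37.3 CPM in Rbmx knockdown and at 40.1, 32.1, 26.0 and 21.9 CPM in Rbmxl1 knockdown (0.36 ± 0.114 SE, n = 4 pairs, edgeR adjusted p = 0.983). The Rbmx group was even across its libraries, and the 2 Rbmxl1 libraries numbered 3 and 4 were the low ones. The Brca2 difference was 0.22 without replicate 4 and 0.02 to 0.69 under the alternatives, of which 2 of 14 called it. Gene-level counts do not show whether an exon is cut short.

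Over all protein-coding genes with an internal exon of at least 1000 bases the median was −0.01 (1572 tested, 684 higher and 888 lower), with 16 genes higher and 70 lower at an unadjusted p under 0.05. For genes of several exons without such an exon the median was 0.01 (10643 tested), with 217 higher and 286 lower. Of all genes tested, 1.55% were higher and 3.16% lower at that threshold. Homologous recombination and Fanconi genes had a median of −0.05 (37 tested, 8 higher and 29 lower; pair medians −0.06, −0.15, −0.01 and 0.03), and 1 of them, the nuclease subunit Eme1, was under 0.05 (−0.23, lower in 4 of 4 pairs). Topbp1, the checkpoint scaffold and most abundant member, differed by −0.11.

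Cohesin subunits and regulators had a median of 0.05 (20 tested, 14 higher and 6 lower), with pair medians of −0.01, 0.05, 0.16 and 0.04. Esco1, which acetylates cohesin, stood at 32.0, 33.8, 30.9 and 30.0 CPM in Rbmx knockdown and at 29.2, 28.5, 25.1 and 23.7 CPM in Rbmxl1 knockdown (0.25 ± 0.0724 SE, n = 4 pairs, edgeR adjusted p = 0.983). These groups did not overlap. The cohesin ring subunit Rad21 differed by 0.02.

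Mitotic genes had a median of 0.07 (46 tested, 37 higher and 9 lower). At an unadjusted p under 0.05, 4 of them were higher and none lower, beside 1.55% and 3.16% of all genes. The 4 were the mitotic kinases Aurka (0.25) and Plk1 (0.22), the spindle midzone kinesin Kif20a (0.20) and Hmmr (0.19). Without replicate 2 Plk1 and Kif20a each differed by 0.13, and without replicate 1 Hmmr differed by 0.29. Aurka stood at 43.8, 46.1, 52.6 and 44.8 CPM against 36.8, 33.0, 48.0 and 40.7 CPM, higher in each pair. The list median was −0.06 in the pair numbered 1 and 0.09 to 0.10 in the other 3, and Top2a, the most abundant member, differed by 0.02.

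Replication-dependent histone genes, intronless genes expressed in S phase whose messages end in a stem-loop in place of a poly(A) tail, had the highest median apart from the Rbmx family, 0.17 (46 tested, 42 higher and 4 lower). At an unadjusted p under 0.05, 8 were higher and none lower, beside 1.55% and 3.16% of all genes. Near-identical copies share reads in this family, so single members are uncertain. The summed level was 3620, 3731, 3666 and 3597 CPM in Rbmx knockdown and 4481, 3069, 3147 and 2549 CPM in Rbmxl1 knockdown. The Rbmx group was even and the Rbmxl1 group spread widely around it, so the groups overlapped.

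The median histone difference was −0.34 in the pair numbered 1 and 0.40, 0.13 and 0.55 in the pairs numbered 2, 3 and 4. Without replicate 1 it was 0.38. Hist1h1a and Hist1h3f were the 2 members higher in all 4 pairs. Hist1h3f stood at 69.3, 76.1, 76.3 and 66.3 CPM against 67.1, 51.6, 70.2 and 46.5 CPM (0.31), and Hist1h3c and Hist1h3b each differed by 0.29, with the pair numbered 1 reversed. The most abundant member, Hist2h3b, differed by 0.16, by 0.04 without replicate 3, and by −0.11 to 0.44 under the alternatives. The linker histones Hist1h1c (0.17) and Hist1h1e (0.16), chosen after their values were seen, were highest in the Rbmxl1 library numbered 1, at 303 and 343 CPM. Without replicate 1 they differed by 0.41 and 0.40, and without replicate 4 by −0.02 and −0.01.

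Clustered protocadherins, neuronal adhesion proteins encoded by tandem arrays of variable exons, had the lowest median, −0.20 (52 tested, 3 higher and 49 lower). At an unadjusted p under 0.05, 5 were lower, beside 3.16% of all genes. The pair medians were −0.41 and −0.42 for the numbers 1 and 2, and 0.01 and −0.01 for the numbers 3 and 4. Most members were at low levels and share exons or overlap, so reads cannot always be assigned to 1 of them. Pcdhb16 stood at 3.85, 4.62, 4.38 and 4.76 CPM in Rbmx knockdown and at 5.19, 7.70, 5.53 and 4.71 CPM in Rbmxl1 knockdown (−0.37). Pcdhb4 (−0.37), Pcdhgc5 (−0.46) and Pcdhb19 (−0.41) were lower in 4 of 4 pairs, among 7 members that were, beside 6.48% of all genes. Without replicate 2 the differences were −0.25 for Pcdhb16 and −0.27 for Pcdhb19. Pcdhgc3, the most abundant, differed by −0.08.

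Nuclear and imprinted long non-coding RNAs had a median of −0.14, with all 15 tested lower. At an unadjusted p under 0.05, 4 of them were lower, beside 3.16% of all genes. Again the pairs numbered 1 and 2 carried the distance (−0.47 and −0.54), against −0.02 and 0.05 in those numbered 3 and 4. Neat1, the scaffold of paraspeckles, stood at 45.8, 53.4, 51.9 and 69.5 CPM in Rbmx knockdown and at 76.4, 117, 70.2 and 66.9 CPM in Rbmxl1 knockdown (−0.56 ± 0.132 SE, n = 4 pairs, edgeR adjusted p = 0.832). It was called without replicate 4 (adjusted p = 0.0393), whereas the difference was −0.37 without replicate 2 (adjusted p = 1.00) and −0.19 in replicates 3 and 4 alone (adjusted p = 0.344). Malat1, an abundant RNA of nuclear speckles, stood at 1772, 2406, 1715 and 2356 CPM against 2258, 2988, 1793 and 2341 CPM (−0.18). Firre, an X-linked RNA of nuclear architecture (−0.83; pair differences −0.69, −2.32, −0.82 and 0.46, and −0.37 without replicate 2), and Nespas, an imprinted antisense RNA of the Gnas locus (−0.29), were also lower in 3 of 4 pairs.

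Genes that host small nucleolar RNAs in their introns and code for no protein had a median of −0.13 (15 tested, 1 higher and 14 lower), which was −0.04 without replicate 2. The pair medians were −0.12, −0.27, −0.12 and 0.03. Snhg6 stood at 25.5, 25.5, 16.8 and 20.6 CPM against 30.1, 31.9, 23.3 and 21.1 CPM, lower in each pair (−0.27), and the most abundant, Snhg1, differed by 0.02. Snhg20 differed by −0.46, with pair differences of −0.03, −1.33, −0.62 and 0.17, and by −0.17 to −0.70 under the alternatives. Transcripts of the mitochondrial genome had a median of −0.11 (15 tested, 3 higher and 12 lower). Their pair medians ran from −0.43 to 0.24, and mt-Co1, the most abundant, differed by 0.02. The light-strand gene mt-Nd6 was the 1 member under an unadjusted p of 0.05 (−0.23), and it was higher in 2 pairs and lower in 2.

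**Figure D4:**
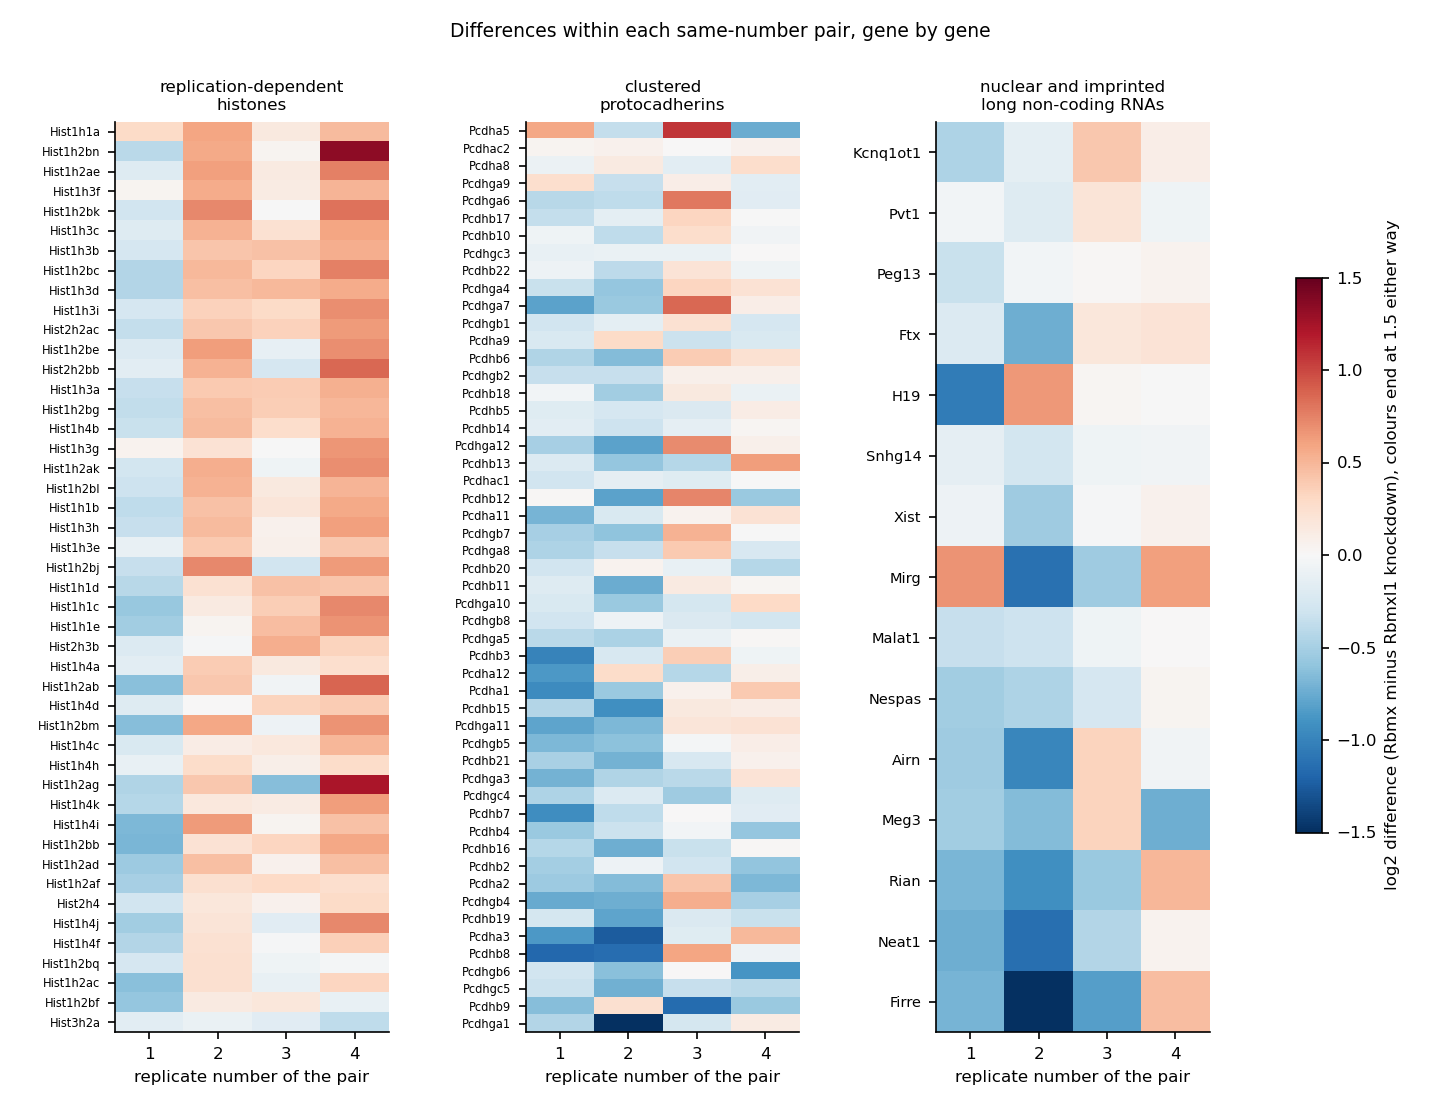
Log2 difference (colour, red higher and blue lower in Rbmx knockdown, ending at 1.5 either way) of each tested histone, protocadherin and nuclear long non-coding RNA gene (rows, ordered by the fitted difference) within each same-number pair (columns). Histones are mostly blue in the column of the number 1 and mostly red in those of 2 and 4, whereas protocadherins and non-coding RNAs are mostly blue in the columns 1 and 2.

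Stress and metabolic classes differed by small amounts. Genes of the ER folding response had a median of 0.10 (31 tested, 29 higher and 2 lower). The pair medians were −0.03, 0.10, 0.27 and 0.03, and the median ran from 0.03 in replicates 1 and 2 alone to 0.16 without replicate 1. Herpud1, an ER-associated degradation factor, stood at 160.3, 172, 241 and 241 CPM in Rbmx knockdown and at 142, 141, 197 and 218 CPM in Rbmxl1 knockdown (0.22, higher in 4 of 4 pairs), while the ER stress sensor Ern1 was lower in 4 of 4 (−0.19, and −0.09 without replicate 2). The ER chaperone Hspa5, the most abundant, differed by 0.14, with pair differences of −0.11, 0.07, 0.53 and 0.08, and its sign turned under the alternatives (−0.02 to 0.31). Targets of ATF4, the transcription factor of the amino-acid stress response, had a median of 0.08 (30 tested, 24 higher and 6 lower), and 10 of them were higher in all 4 pairs, beside 5.63% of all genes. Of these, Chac1, which degrades glutathione, differed by 0.16 and the amino-acid transporter Slc7a5 by 0.09.

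Nuclear subunits of oxidative phosphorylation had a small difference of 1 sign in all pairs. Their median was 0.07 (74 tested, 65 higher and 9 lower), 18 were higher and none lower in all 4 pairs, and the pair medians were 0.04, 0.17, 0.04 and 0.06. At an unadjusted p under 0.05, 8 were higher and none lower, beside 1.55% and 3.16% of all genes. The shares of all genes higher or lower in all 4 pairs were 5.63% and 6.48%. Cytosolic ribosomal proteins had a median of 0.06 (79 tested, 70 higher and 9 lower), with pair medians of 0.04, 0.14, 0.06 and 0.02. Members of both lists are mostly short, highly expressed genes with processed pseudogenes, and reads that match both were not assigned.

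Glycolytic enzymes had a median of 0.08 (18 tested, 17 higher and 1 lower), which 1 pair decided. The pair medians were −0.17, 0.71, −0.13 and −0.03, and without replicate 2 the median was −0.09. Pkm, the last enzyme of the pathway, stood at 2326, 3555, 1976 and 1866 CPM against 2467, 2252, 2229 and 1916 CPM, so that the Rbmx library numbered 2 was the high one. No glycolytic gene had an unadjusted p under 0.05.

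Among non-coding gene types as annotated, the medians of lincRNA, antisense and processed transcript genes lay below 0 in the pairs numbered 1, 2 and 3. In the pair numbered 4 they lay above 0. MiRNA genes (80 tested, median −0.23), bidirectional-promoter lncRNA genes (84 tested, −0.12) and transcribed processed pseudogenes (83 tested, −0.01) had the same order. So did protein-coding genes of 1 exon outside the histone list (308 tested, −0.07), with 109 higher and 199 lower. The median over the fit was −0.16 for lincRNA genes (506 tested, 125 higher and 381 lower, 2 higher and 44 lower at an unadjusted p under 0.05), −0.17 for antisense genes (440 tested) and −0.15 for processed transcripts (266 tested), against 0.01 for protein-coding genes (12568 tested). Of all genes tested, 1.55% were higher and 3.16% lower at an unadjusted p under 0.05. The lincRNA pair medians were −0.24, −0.40, −0.02 and 0.04. Genes of the annotated type TEC (1067 tested, median −0.14) had pair medians of −0.40, −0.35, 0.16 and 0.06, and sense intronic genes (173 tested, median −0.15) had −0.34, −0.38, 0.02 and 0.11, both above 0 in the pair numbered 3. Processed pseudogenes did not share this order either, with pair medians of 0.15, 0.12, −0.19 and −0.01, nor did snRNA genes (0.17, −0.09, −0.28 and 0.03) or snoRNA genes (0.09, −0.04, −0.24 and 0.14). Antisense genes overlap their partners by definition, and the strand setting of the counting is not given in the sources used here. Genes of the X chromosome other than Rbmx had a median of 0.02 (488 tested), and autosomal genes one of −0.00.

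Some shares of the reads in a library differed in 1 direction in all pairs. Protein-coding genes held 97.3%, 97.3%, 97.5% and 97.3% of the reads in genes in Rbmx knockdown and 96.7%, 96.9%, 97.3% and 97.0% in Rbmxl1 knockdown, higher in each pair. Over the reads outside CT010467.1 the shares were 97.6%, 97.5%, 97.7% and 97.4% against 97.2%, 97.3%, 97.5% and 97.5%, higher in 3 of 4 pairs. Reads outside gene features were 26.3%, 28.5%, 30.8% and 31.5% of the file totals in Rbmx knockdown and 27.9%, 29.2%, 32.0% and 32.2% in Rbmxl1 knockdown, lower in each pair. LincRNA genes held 0.419%, 0.513%, 0.524% and 0.576% against 0.495%, 0.716%, 0.549% and 0.554% of the reads in genes, lower in 3 of 4 pairs. The part of these shares in the differences of the non-coding classes was not tested.

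**Figure D5:**
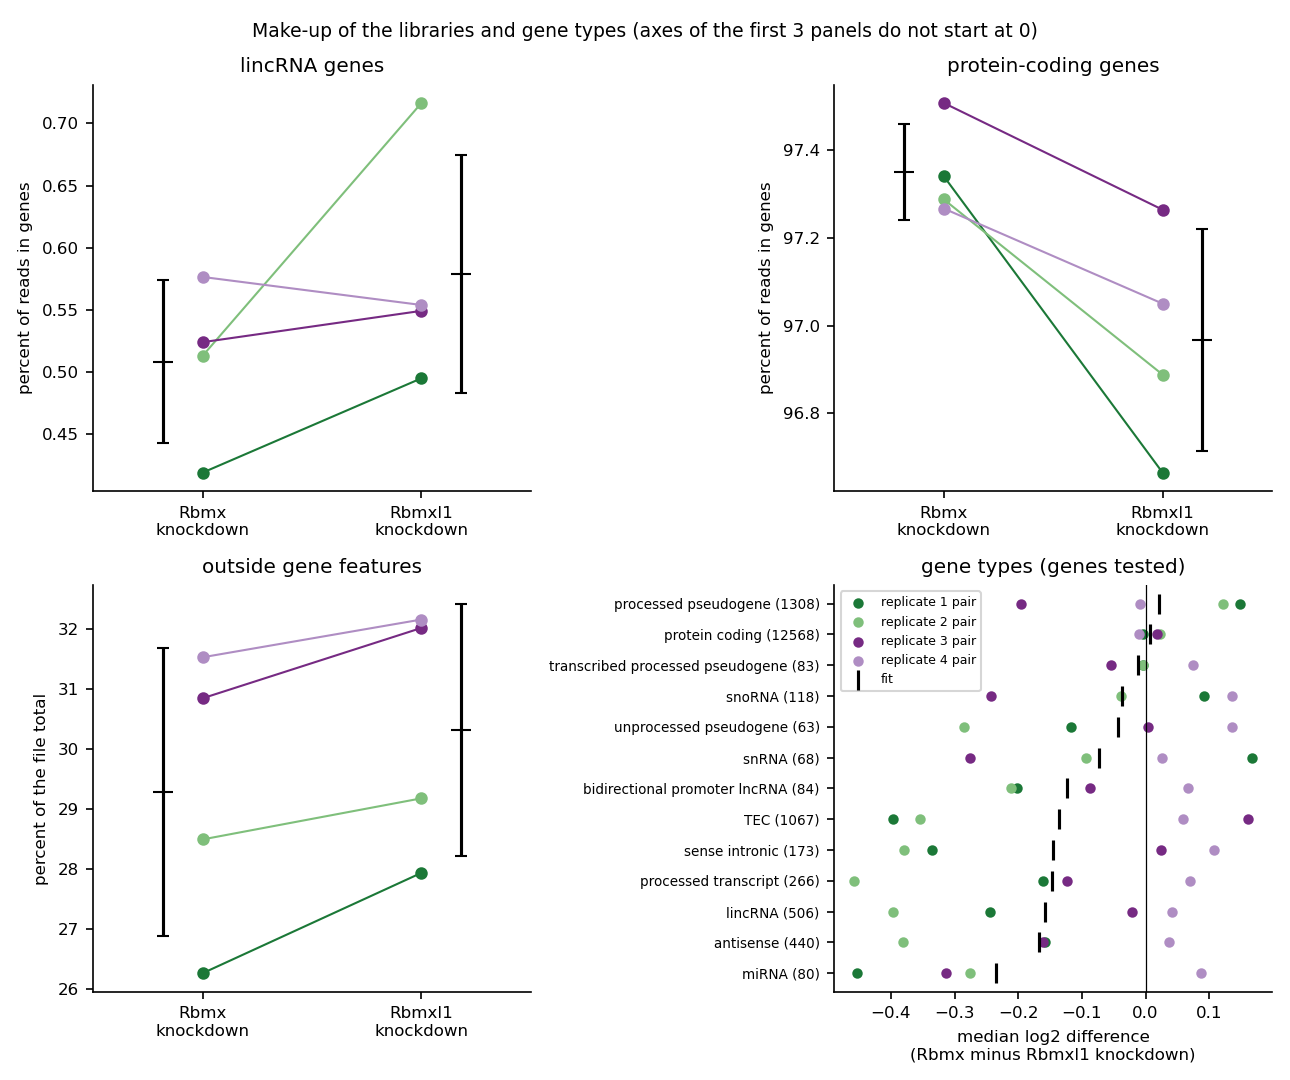
Shares of reads in lincRNA genes and protein-coding genes and share of the file total outside gene features in each library (vertical axes in percent, not starting at 0; lines join libraries with the same number, bars give mean and SD of 4), and median log2 difference of each annotated gene type (horizontal axis) in each pair and in the fit. In all 4 pairs the share outside features is lower and the protein-coding share, in which CT010467.1 counts among all reads, higher in Rbmx knockdown; the lincRNA share is lower in 3 of 4.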

How the data were processed

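Neuro-2a RNA-seq libraries, 4 with Rbmx knockdown and 4 with Rbmxl1 knockdown, were analysed from the raw read counts per Ensembl gene that the authors deposited, 1 file per library and 55401 genes. The submitters' processing notes name cutadapt, STAR 2.5.3a, HTSeq 0.6.1p1, R 3.3.2 and DESeq2 1.16.1 and the build mm10; the annotation release and strand setting are not given in the sources used here. The 5 rows per file that name no gene, 53.5% to 57.4% of the file totals in these 8 libraries, entered neither library sizes nor tests. Names, positions and gene types came from GENCODE M21 (GRCm38), which held 55141 of the identifiers.

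Counts were fitted with edgeR 4.0.16 in R 4.3.3: TMM scaling, filterByExpr (minimum count 10, minimum total 15), a replicate block and the quasi-likelihood F-test of Rbmx minus Rbmxl1 knockdown, Benjamini-Hochberg adjusted over 17007 genes and called under 0.05. The standard error was taken from the F statistic and was undefined for 1 gene. The replicate number from the labels was used as a block because libraries that share it varied together in all 4 pairs (r = 0.55, 0.21, 0.38 and 0.46). Libraries of different number within the sets 1 and 2 or 3 and 4 also did (r = 0.11 to 0.46), so number and set cannot be told apart. The fit was also run on simulated counts with known changes, drawn with dispersions estimated from these data and without shifts particular to 1 pair. The outcome is not reported here, and such counts cannot show how the fit deals with shifts of that kind.

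The members, the 41 lists (36 of function, 5 of markers) and the rules were chosen with earlier results of these data known. Of 1150 list entries 9 were not matched. Genes named are the Rbmx family, every called gene, the 10 smallest unadjusted p in each direction (at least 1 CPM, same direction in 4 pairs), and, in 17 lists, up to 4 members under 0.05 and the most abundant one; other genes are given as chosen after their values were seen. The 17 are 9 lists about RBMX and the 8 others with the largest absolute median. Alternatives were other scalings (RLE, upper quartile), filters, DESeq2 1.42.0, limma-voom (limma 3.58.1), no block, all 12 samples, each replicate left out, and replicates 1 and 2 or 3 and 4 alone. A few genes that these rules name are not reported here.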

Additional observations from a re-analysis of the deposited data

Results flagged for a closer look

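Among 200 sets of 4 values checked for 1 library far from the other 3 (gap to the nearest over the whole range above Dixon's 95% critical value), 5 stood out, and chance flags about 1 in 20 sets. In the Rbmx group, replicate 3 was high for the summed mitotic genes (5693 CPM, the others 5200 to 5265). In the Rbmxl1 group, replicate 2 was high for Pcdhb19 (4.37 CPM, the others 2.46 to 2.61) and for the share of reads in processed transcripts (0.315%, the others 0.279% to 0.281%). Replicate 3 of that group was low for the summed mitochondrial transcripts (9682 CPM, the others 12721 to 13231), and replicate 1 was high for the share of miscellaneous RNA (1.05%, the others 0.608% to 0.653%).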

How the results depend on the processing

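Rbmx and Rbmxl1 were called under all 14 alternatives, with log2 differences of −1.88 to −1.45 and 1.28 to 1.47. The number of genes called was 3 with the replicate block and 2 without it, 5 with DESeq2, 55 with no filter on low counts, 32 in replicates 1 and 2 alone, 184 in replicates 3 and 4 alone, and 2 to 5 with 1 replicate left out, the 5 without replicate 4 including Neat1 and Rsrp1. In the fits that gave 55 and 184 calls, the median degrees of freedom rose to 91179 and 17368, against 14.3 in the main analysis. Genes at an unadjusted p under 0.05 numbered 801 with the replicate block, 158 without it, 1254 with no filter, 1595 and 1612 in replicates 1 and 2 or 3 and 4 alone, and 463 to 974 with 1 replicate left out, lowest without replicate 2. CT010467.1 was called under 10 of 14 alternatives. The protocadherin median was −0.44 in replicates 1 and 2 and 0.03 in replicates 3 and 4 alone, and that of lincRNA genes −0.33 and 0.01. The cause of these shifts was not tested. With 4 pairs and a median half-width of 0.216 on the log2 scale, the interval of a typical gene with a smaller difference includes 0.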
